A study of Mus musculus with 2 samples.

Results

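The Krüppel-like factors (KLFs) are transcription factors that bind DNA through zinc fingers at the C-terminal end of the protein. The 10 KLF genes Klf4, Klf2, Klf3, Klf5, Klf6, Klf7, Klf9, Klf10, Klf13 and Klf15 were examined in a Klf4 chromatin immunoprecipitation sequencing (ChIP-seq) experiment, to see where peaks lay at the loci of Klf4's own family. Each gene was given 1 fixed window in the mouse genome build mm9, between 30 and 130 kb long and 0.62 Mb in all, and a peak belonged to a gene when its midpoint fell inside that window. By this rule 11 of the 7313 peaks of the list were KLF peaks.

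The tissue was the mesenteric arcade, the fan of small arteries and veins that feeds the gut, from C57BL/6 mice on chow. In the labels, 1 library came from SMC eYFP+/+ Klf4delta/delta mice, in which Klf4 is deleted in smooth muscle cells (SMC), and 1 library from SMC eYFP+/+ Klf4WT/WT mice, with Klf4 intact. Both genotypes carried the eYFP allele, and the sources used here name neither the promoter that drives the recombinase nor the number or age of the animals. Both libraries were made with an anti-Klf4 antibody from the stromal vascular fraction. That fraction holds smooth muscle, epithelial and macrophage cells among others, and no peak can be traced to 1 of them. A single peak list stands for the whole experiment and names no genotype. Deleted and intact tissue were therefore not compared, there were no replicates, and no p-value was attached to any value. The score of a peak is the authors' score from their peak caller, whose scale the file does not state, and it ran from 60.01 to 1023.8 over the list.

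KLF proteins recognise CACCC elements and GC-rich boxes, and members share much of their zinc-finger region, so that different KLFs can occupy the same sites. In vessels, Klf4 is known for the phenotypic switching of smooth muscle cells and, with Klf2, for the quiescent state of endothelium. Members act on each other's genes in several tissues, with Klf2, Klf4 and Klf5 of embryonic stem cells as the best known case. Klf2, Klf4, Klf5, Klf6 and Klf7 belong to the branch of the family that includes most activators. Klf3 is a repressor that recruits the corepressor CtBP, and Klf9, Klf10 and Klf13 recruit the corepressor Sin3a. Klf15 is outside these branches and is known for metabolic control in muscle, liver and fat.

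Sequence upstream of the genes is shown here for the pair with the highest peak scores (Klf9 and Klf6), the pair with the lowest (Klf4 and Klf2) and the gene without a peak (Klf15), so that the letters Klf4 could read can be compared across that range. Each run is the 250 bases before the annotated start, 5′ to 3′ on the gene's strand, from RefSeq in build GRCm38.p6. Those coordinates belong to another build than the peaks and cannot be set against them, so whether a peak covers a promoter was not determined. Capitals mark the CACCC element, the related motif GGNGTGG or the GC box GGGCGG on either strand. Only a GGNGTGG with G at its N also holds CACCC on the other strand.
Klf9 upstream sequence (chr19:23140976-23141225, plus strand): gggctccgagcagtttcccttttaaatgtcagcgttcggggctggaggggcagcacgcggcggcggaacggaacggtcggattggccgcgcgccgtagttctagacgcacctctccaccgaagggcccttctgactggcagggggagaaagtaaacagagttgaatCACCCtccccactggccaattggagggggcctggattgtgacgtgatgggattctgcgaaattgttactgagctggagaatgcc
Klf6 upstream sequence (chr13:5861239-5861488, plus strand): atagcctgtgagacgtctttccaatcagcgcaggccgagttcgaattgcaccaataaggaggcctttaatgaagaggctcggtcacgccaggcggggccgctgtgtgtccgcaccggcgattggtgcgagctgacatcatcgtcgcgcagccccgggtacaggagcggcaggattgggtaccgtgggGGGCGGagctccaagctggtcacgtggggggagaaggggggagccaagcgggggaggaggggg
Klf4 upstream sequence (chr4:55532476-55532725, minus strand): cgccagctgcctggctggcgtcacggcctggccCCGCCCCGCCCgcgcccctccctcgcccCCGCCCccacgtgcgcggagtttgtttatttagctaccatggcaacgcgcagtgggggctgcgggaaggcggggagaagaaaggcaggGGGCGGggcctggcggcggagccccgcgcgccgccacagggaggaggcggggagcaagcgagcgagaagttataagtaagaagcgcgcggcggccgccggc
Klf2 upstream sequence (chr8:72318812-72319061, plus strand): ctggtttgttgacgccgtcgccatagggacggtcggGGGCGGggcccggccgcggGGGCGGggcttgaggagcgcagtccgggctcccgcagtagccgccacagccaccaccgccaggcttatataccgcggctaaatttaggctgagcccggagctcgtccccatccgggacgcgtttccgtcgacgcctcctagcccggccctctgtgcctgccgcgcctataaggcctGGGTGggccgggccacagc
Klf15 upstream sequence (chr6:90462326-90462575, plus strand): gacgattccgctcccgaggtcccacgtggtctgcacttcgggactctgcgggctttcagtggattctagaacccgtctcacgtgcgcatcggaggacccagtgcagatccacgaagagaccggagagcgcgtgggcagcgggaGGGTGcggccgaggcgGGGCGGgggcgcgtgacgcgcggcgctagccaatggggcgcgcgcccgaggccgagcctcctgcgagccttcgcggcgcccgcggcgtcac

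The promoters of KLF genes were GC-rich, and they differed in the number of matches to the letters searched. Of the 10 genes, 8 matched the promoter table (all but Klf5 and Klf10), and their GC content ran from 59.2% (Klf7) to 78.4% (Klf3), against a median of 52.4% over 32851 promoters. The GC box GGGCGG was in 7 of 8 KLF promoters, against 32.7% of all promoters, which were not matched for GC content. CACCC was in 6 of 8, against 52.0%, and GGNGTGG in 3 of 8, against 29.2%. Klf9, with the highest peak score, held 1 CACCC and no GGGCGG in its 250 bases. Klf4, with the lowest score, held 4 GGGCGG and neither of the other motifs. Klf15, with no peak, held 1 CACCC and 1 GGGCGG. Klf3 held most, with 5 CACCC, 1 GGNGTGG and 6 GGGCGG. A match is a run of letters and not a measured site, and a link between matches and peak scores was not tested.

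Klf4 peaks were present at 9 of the 10 KLF genes. The windows of Klf3 and Klf9 held 2 peaks each, those of Klf4, Klf2, Klf5, Klf6, Klf7, Klf10 and Klf13 held 1 each, and that of Klf15 held none. The whole genome, cut into adjacent windows of the same length, gives the background for these counts. A peak was found in 7.20% of windows of 30 kb (the length for Klf2), 9.29% of 40 kb (Klf15), 11.2% of 50 kb (Klf5, Klf6 and Klf10), 13.0% of 60 kb (Klf4 and Klf9), 14.7% of 70 kb (Klf3), 16.2% of 80 kb (Klf13) and 23.2% of 130 kb (Klf7). At least 2 peaks were found in 3.26% of windows of 60 kb and in 4.02% of windows of 70 kb. All 10 KLF windows were laid around a gene, whereas the adjacent windows were cut without regard to genes. Klf4 peaks were not placed relative to other genes here. The part that gene content plays in the difference was not tested.

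In the KLF windows together, peaks numbered 17.7 per Mb, against 2.60 per Mb in the 500 kb on each side of them and 2.86 per Mb over the span of the whole list. KLF windows thus held 6.20 times the peak density of the list. Peaks covered 2.37% of the bases of KLF windows and 0.285% of the span of the list. This density depends on how tightly the windows were drawn. With 50 kb added on each side of each window no further peak was gained, and the density was 6.79 per Mb.

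**Figure D1:**
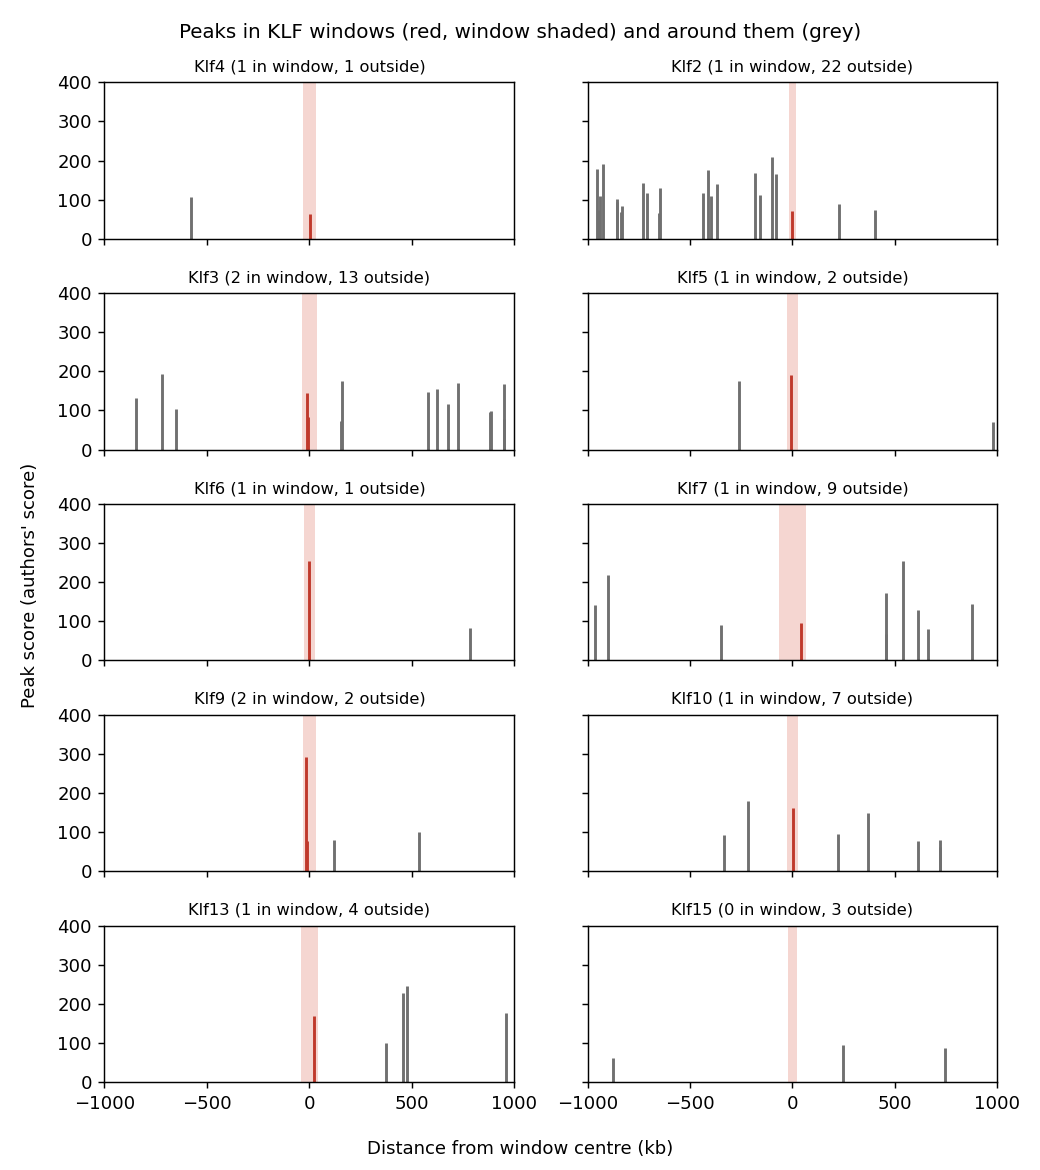
Each panel shows 1 KLF gene, with the distance from the centre of its window in kb on the x axis and the authors' peak score on the y axis. Red lines are peaks inside the shaded window and grey lines are peaks up to 1 Mb away from its centre. The peaks of Klf4 and Klf6 each have 1 other peak in their panel, while the Klf2 peak lies low beside a row of higher peaks.

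The median score and median width of the KLF peaks were above those of the other peaks. By score, single KLF peaks ranged from the low end of the list to its upper part. The 11 KLF peaks had a median score of 145.01 (range 63.99 to 290.78), against 112.02 for the other 7302 peaks. Their median width was 1299 bp (range 544 to 2790 bp), against 912.5 bp. Scores above the list's median of 112.02 were held by 6 of the 11, close to the 50% of the list itself. Of the 11 peaks, 4 were in the upper 25% of scores, 3 were in the lowest 25%, and 6 were in the upper 25% of widths. Set against peaks within 10% of their own width, 8 of 11 KLF peaks scored below the median.

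Among the activators, the gene of Klf4 itself carried 1 of the lowest-scoring peaks of the list. The Klf4 peak lay on chromosome 4 at 55543055 to 55543598, was 544 bp wide and scored 63.99. Only 334 of 7313 peaks scored lower, and 4.58% of the list was at or below this score. Its score was also low for its width, since 16.8% of the 649 peaks of similar width scored no higher. The nearest peaks were 581.1 kb before and 1270.9 kb after this peak. The lowest score of the list was 60.01, so this peak scored just above the lowest that the authors kept. The sources used here do not say which library gave the list, and the part of the Klf4 deletion in the score of this peak was not tested.

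Klf2, the factor that shear stress induces in endothelium, also had a low peak. It lay on chromosome 8 at 74843809 to 74844701, was 893 bp wide and scored 71.53, with 13.6% of the list at or below that score. Of 1432 peaks of similar width, 10.3% scored no higher, the lowest such standing among the 11 KLF peaks. Klf2 differed from Klf4 in its surroundings. In the 500 kb on each side there were 10 peaks, whose median score was 129.36, and all 10 scored above the peak of Klf2. The nearest lay 79.1 kb before it. In the gene table Klf2 lies between the protein-coding genes Ap1m1 and Eps15l1, and the flanking peaks were not assigned to either.

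Klf5 and Klf6 had high-scoring peaks. Klf5, a factor of proliferating smooth muscle, had a peak of 1299 bp with a score of 190.90 on chromosome 14 at 99698116 to 99699414, and 83.8% of the list was at or below that score. For its width it stood highest of the 11, with 73.5% of 1033 similar peaks scoring no higher. Klf6, an early-response factor of injured vessels, had the widest KLF peak, 2790 bp on chromosome 13 at 5860781 to 5863570. It ranked 33 of 7313 by width and 513 by score (253.05). Its score was nevertheless below the median of 299.97 for the 37 peaks of similar width. No other peak lay within 500 kb of its window, and the nearest were 1942.9 kb before and 783.0 kb after it.

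Klf7, known from neuronal development and as an inhibitor of fat cell differentiation, had a wide but low peak. It spanned 1670 bp on chromosome 1 at 64166478 to 64168147, with rank 517 of 7313 by width, and scored 94.27. By width 92.9% of the list was at or below it, and by score 38.5%. Of 437 peaks of similar width, 12.1% scored no higher, and their median score was 182.77.

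**Figure D2:**
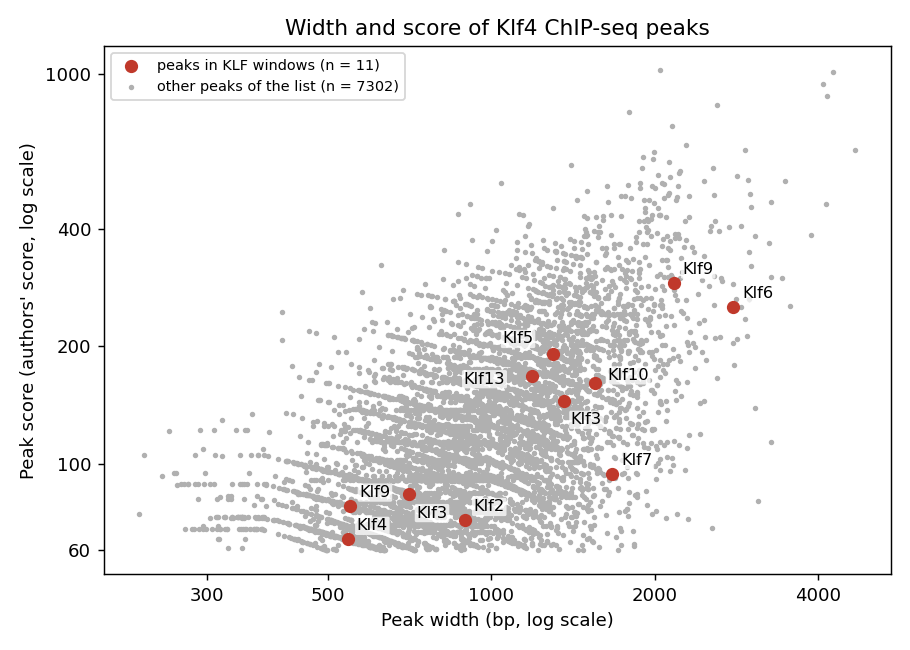
Peak width in bp on the x axis and the authors' score on the y axis, both on log scales, for the 11 peaks in KLF windows (red, labelled by gene) and the other 7302 peaks (grey). The Klf9 and Klf6 peaks lie at the upper right, at 290.78 and 253.05, Klf4 and Klf2 lie along the lower edge, and Klf7 lies low for its width.

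The highest peak of each repressor gene scored above the list's median of 112.02, and the second peaks of Klf3 and Klf9 scored below it. Klf3 had a pair of peaks on chromosome 5. The first, at 65194612 to 65195970, was 1359 bp wide with a score of 145.01, and the second, at 65196815 to 65197520, was 706 bp wide with a score of 83.59. A gap of 844 bp separated them, and the next peaks were 642.2 kb before and 163.4 kb after the pair. Among peaks of similar width, 46.4% and 35.9% scored no higher than the first and the second.

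Klf9, which glucocorticoid and thyroid hormones induce in several tissues, had the highest peak of the 10 genes examined. This peak lay on chromosome 19 at 23214753 to 23216918, was 2166 bp wide and scored 290.78, with rank 303 of 7313 by score and 114 by width. A second peak of 550 bp with a score of 77.87 followed 242 bp after it, at 23217161 to 23217710. The chromosome held 275 peaks, and 97.1% of them scored no higher than the first Klf9 peak. The 4 peaks of these Klf3 and Klf9 pairs were the KLF peaks with a neighbour under 1 kb away, 4 of 11 against 16.6% of the list. In both pairs the wider and higher peak came first by coordinate. Whether each pair is 1 enriched region or a pair of sites cannot be told from a list of intervals.

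Klf10 and Klf13 each had 1 peak above the list's median score of 112.02. Klf10, an early gene of TGF-beta signalling, had a peak of 1550 bp with a score of 160.66 on chromosome 15 at 38229181 to 38230730. Klf13, known from lymphocytes and heart development, had a peak of 1190 bp with a score of 167.45 on chromosome 7 at 71082537 to 71083726. Of the list, 74.8% and 77.3% scored no higher than the Klf10 and the Klf13 peak. The stretch before the Klf13 peak was free of peaks for 4597.1 kb.

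The best peaks of the 3 Sin3a-recruiting members scored between 160.66 and 290.78, so all 3 were above the list's median. Those of the 5 genes of the activator branch ran from 63.99 to 253.05, and 2 of 5 were above it. Klf9 was counted by the higher of its 2 peaks, whereas each gene of the activator branch had a single peak. The ranges overlapped, and the grouping by branch was made with these values known, so the counts describe these genes alone.

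**Figure D3:**
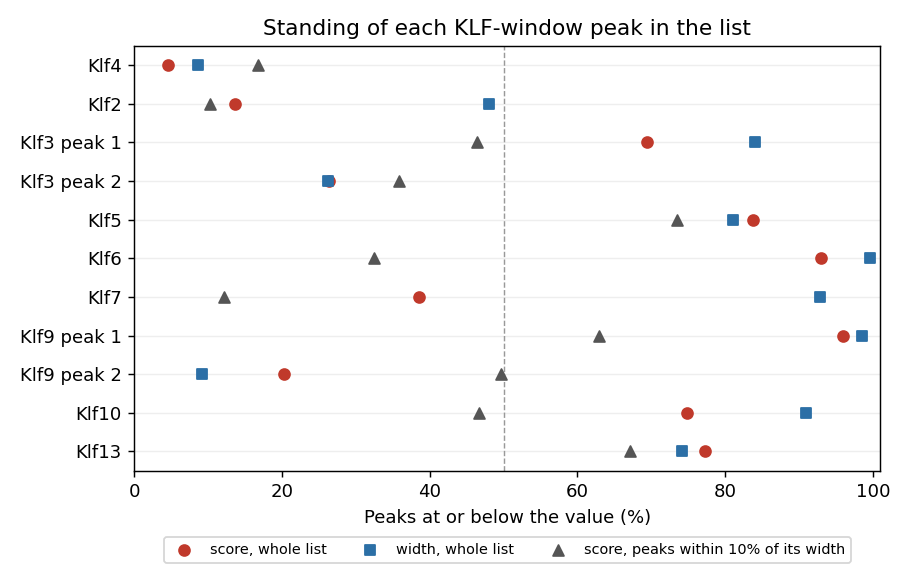
For each of the 11 KLF peaks (rows), the x axis gives the percent of peaks at or below its score in the whole list (circles), its width in the whole list (squares) and its score among peaks within 10% of its width (triangles), with the dashed line at 50%. The triangle of Klf6 (32.4%) lies farthest left of its circle (93.0%), and 8 of the 11 triangles lie left of the dashed line.

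Klf15 was the only 1 of the 10 KLF genes examined without a peak. Its window of 40 kb on chromosome 6, from 90.40 to 90.44 Mb, held no midpoint, and no peak overlapped it. The nearest peaks were 226.0 kb after the window (532 bp, score 95.10) and 854.4 kb before it (576 bp, score 62.55). Read depth is unknown, so a signal below the authors' threshold was not detectable in this list and is not shown to be absent. Of all adjacent windows of this length 9.29% held a peak, so an empty window is the common case.

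Apart from the Klf3 and Klf9 pairs, the KLF peaks lay far from their nearest neighbour, a measure chosen after the values were seen. The 500 kb flanks nevertheless held 2.60 peaks per Mb, close to the 2.86 per Mb of the list. With peaks under 1 kb apart joined into 1 region, the distance from a KLF region to the nearest other region had a median of 252.8 kb and ran from 79.1 kb (Klf2) to 783.0 kb (Klf6). The median over the 6693 regions of the list was 55.0 kb, and all 9 KLF regions were above it. The distance was at least 100 kb for 8 of 9 KLF regions, against 33.0% of all regions. Klf6 and Klf4 were the most isolated, since 2.88% of regions had a neighbour as far away as that of Klf6 and 4.38% as far as that of Klf4. Only Klf6 and Klf4 had no peak in the 500 kb on each side of the window. Of the 7 genes with both a peak and peaks in these flanks, Klf5 and Klf9 had a peak above the highest flanking one. Klf5 scored 190.90 against a single flanking peak at 175.87, and Klf9 scored 290.78 against a single one at 79.68.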

How the data were processed

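Bowtie, SAMtools and the build mm9 are named without versions in the submitters' processing notes. The deposited file is a headerless list of intervals, each with a name beginning with MACS and a score given by the authors' peak caller. The caller's version, threshold and control library are not given in those notes or in the file. Per the labels' protocols, chromatin was fixed with paraformaldehyde and sonicated before precipitation. The score was used as deposited, to describe and rank peaks within this list.

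Starts were shifted to 1-based coordinates. A peak was assigned to a KLF window by its midpoint. The adjacent windows used as background covered each placed chromosome between its outermost peaks, which leaves out 15 peaks on other sequences. Flanks were 500 kb on each side. Peaks of similar width were those within 10% of a peak's width. Gene windows were used as given for mm9. No mm9 annotation was used here, so exons, introns and promoters were not assigned and the windows were not checked against gene positions. Promoters and neighbouring genes came from RefSeq (GRCm38.p6) by symbol. The order of genes, not their coordinates, was used.

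All 10 genes and all their peaks are named. Members and lists were chosen with earlier results of these data known, and the family branches, the similar-width comparison and the distance to the nearest region were added after the values were seen. Counting was tested on simulated intervals. Other KLF and Sp genes were not analysed here. Python 3.11.15, numpy 2.4.6, pandas 2.3.3 and matplotlib 3.10.9 were used.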

Additional observations from a re-analysis of the deposited data

How the results depend on the processing

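The number of KLF peaks, 11, and of genes with a peak, 9, did not change when any overlap with the window was counted or when windows were widened by 25 or 50 kb on each side. With peaks under 1 kb apart merged there were 9 peaks at 9 genes, a density of 14.5 per Mb, a median score of 160.7 and a median width of 1550 bp, because the pairs at Klf3 and Klf9 became 1 region each. With the upper 50% of scores, 6 peaks at 6 genes were left (9.68 per Mb, median score 179.2, median width 1454.5 bp), and with the upper 25%, 4 peaks at 4 genes (6.45 per Mb, 222.0 and 1732.5 bp), by construction. Klf4, Klf2 and Klf7 dropped out at the first of these steps. Widened windows gave 9.82 and 6.79 peaks per Mb, since length was added without peaks. Flanks of 250 kb and 1 Mb held 2.40 and 3.40 peaks per Mb. Within 1 Mb bins that hold a peak, the share of adjacent windows with a peak was higher, at 10.9% for 30 kb and 35.0% for 130 kb. The distance to the nearest region with close peaks merged was an alternative chosen after seeing the data. No comparison of genotypes was made, because the list names none. No paired analysis was possible because each genotype had 1 library and the list names neither. Read depth is unknown, so low-scoring or missing peaks do not show weak or absent binding.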
